A study of Danio rerio with 2 samples.

Results

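Endothelial cells are held together and respond to their surroundings through junction and surface proteins, and 8 zebrafish genes of this kind were followed through the 8 cell populations of the study and both of its stages. The genes were taken by name or identifier: cdh5, cldn5b and esama, which encode junction proteins, egfl7 and ecscr, which encode a secreted and a surface protein of endothelial cells, clec14a, which encodes a surface lectin, and tie1 and tek, which encode receptor tyrosine kinases. Of the 8 named genes, 7 were matched to an identifier among the 27931 genes of the TPM table. clec14a was not analysed here. The identifiers were ENSDARG00000075549 for cdh5, ENSDARG00000014059 for cldn5b, ENSDARG00000077039 for esama, ENSDARG00000043376 for egfl7, ENSDARG00000087457 for ecscr, ENSDARG00000004105 for tie1 and ENSDARG00000028663 for tek.

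Adherens junctions join endothelial cells through VE-cadherin, the product of cdh5, which binds the same protein on the next cell and is anchored to actin by catenins. Tight junctions seal the space between cells with strands of claudins, among them claudin 5, and with adhesion proteins of the immunoglobulin family such as Esam. Tek is the receptor of the angiopoietins, and Tie1 is a related receptor that modulates Tek and has no well established ligand of its own. In the zebrafish embryo, endothelial progenitors of the lateral mesoderm move to the midline, where they form the dorsal aorta and the cardinal vein.

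The cells came from Tg(-2.3 etv2:GFP)zf372 embryos with no further treatment, whose GFP transgene is under the control of upstream sequence of etv2, the gene of a transcription factor needed early in vessel and blood formation. All cells therefore carried the reporter, and all were sorted for GFP, so that no cell without it was measured. There was 1 sample of 48 cells at 20 somites and 1 sample of 48 cells at 15-18 somites, each from pooled embryos and captured on its own chip on its own day. Stage, day and chip cannot be told apart. Because there is 1 sample per stage and cells are not replicates, differences below have no test, and no p-value is given.

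The study named the populations arterial (13 cells), venous (8 cells), EC2 (7 cells), endothelial progenitor cells or EPC (14 cells), macrophages (11 cells), erythrocytes (5 cells), epithelial cells (10 cells) and tailbud cells (28 cells). The first 4 are called endothelial here, and the last is called population 3, because its tailbud markers were low: the mean level of 5 matched tailbud genes was 2.17 in population 3, against 3.02 in epithelial cells and 1.86 in EPC, although msgn1 (1.34), myf5 (1.12) and tbx16 (1.07) were highest there. The means of epithelial cells and EPC came mainly from apoeb (12.23 and 6.11, against 5.85 in population 3) and cdx4 (2.86 and 2.95, against 1.46). In both, msgn1 and myf5 were at 0 and tbx16 was at 0.03 and 0.25. The labels call all sorted cells vascular endothelial, and 42 of 96 fell in the endothelial populations. In those 42 cells, kdrl, etv2 and sox7, endothelial markers outside the gene set, were detected in 42 cells each and erg in 31. Of the 54 other cells, 10 had kdrl, 52 etv2, 27 sox7 and 8 erg. Detection of etv2, whose upstream sequence drives the reporter, thus did not set the endothelial populations apart, although its level was 12.42 there and 6.23 in other cells. The populations were clustered on the same cells and genes, and cldn5b and ecscr (arterial) and egfl7 (EPC) are in the marker table that the authors derived from them, so differences between populations are a description of how the clusters are made up.

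Expression is in TPM, the number of transcripts per 1000000 transcripts of a cell, which corrects for transcript length. A gene was called detected in a cell above 1 TPM. A level is the average of log2(TPM + 1) over the cells of a stage, averaged in turn over both stages with equal weight, and a difference of at least 1 on this scale was counted. The unit keeps no record of depth, which is therefore unknown for each single cell, and a value of 0 does not show absence. Complexity was similar in the endothelial populations, with a median of 5326 genes detected in arterial, 5121.5 in venous, 5556 in EC2 and 5390.5 in EPC, whereas population 3 had a median of 3960.5 and held cells with as few as 1845.

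2 arterial cells of the 15-18 somite sample stood apart, because their profiles were almost the same. Their correlation across all genes was 0.98 (Pearson, on log2(TPM + 1)), whereas the next highest of 4560 cell pairs reached 0.69 and the median pair 0.46. Of the genes detected in either cell, 80.9% were detected in both, against at most 48.7% in any other pair. The member genes followed, with 1395 and 1373 TPM for cdh5, 1265 and 1256 TPM for cldn5b and 661 and 642 TPM for egfl7. Whether they are 1 cell in 2 columns was not tested. They are kept as deposited, and arterial values with both counted as 1 cell (12 arterial cells) are given beside the main ones. No cell number occurred in both samples.

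All 7 genes were higher on average over the endothelial populations than over the other populations, and they fell into an order in the progenitors. In ecscr, EPC (level 0.69) lay under population 3 (1.22). egfl7, cdh5 and esama were detected in every EPC, tie1 in 12 of 14, tek in 10, cldn5b in 8 and ecscr in 2. In the 28 arterial, venous and EC2 cells, egfl7, cdh5, esama and tie1 were detected in every cell, cldn5b in 27, and tek and ecscr in 24 each. cldn5b and ecscr, at the end of the order, had the largest differences between arterial cells and EPC (6.33 and 6.35). The order and these differences rest on the same EPC values. Both genes are among the authors' arterial markers, and egfl7, at the start of the order, is among their EPC markers. The order is by detection in EPC, and gain over time was not tested.

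**Figure D1:**
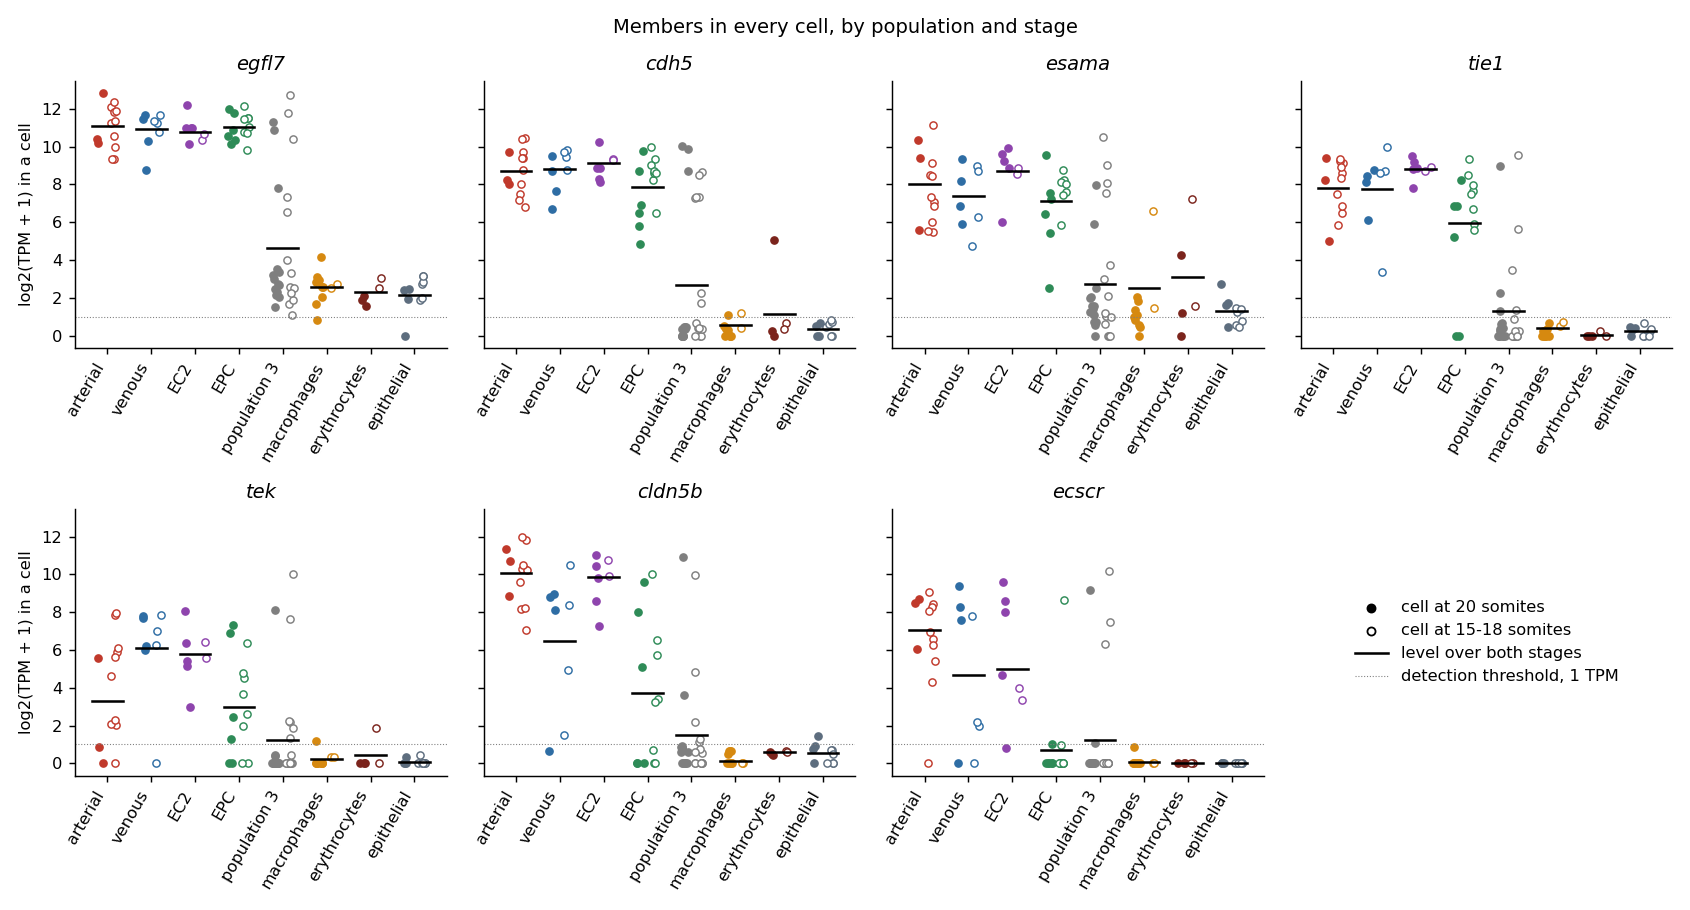
Level of each gene in every cell as log2(TPM + 1), with the populations on the horizontal axis, cells at 20 somites as filled points, cells at 15-18 somites as open points, the level over both stages as a black bar and the detection threshold as a dotted line. egfl7 and cdh5 form a closed band in the 42 endothelial cells, whereas ecscr lies at or near 0 in 13 of 14 EPC and a part of the population 3 cells reaches endothelial levels.

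The secreted protein gene egfl7 was the most abundant of the set, and its level in EPC was close to that in the other endothelial populations. It is among the EPC markers that the authors derived from these clusters, so this level describes the clusters. Egfl7 is deposited in the matrix around endothelial cells and takes part in the formation of the vessel lumen. The values in arterial cells at 20 somites were 7282, 1347 and 1185 TPM, and at 15-18 somites they ran between 642 and 5342 TPM with a median of 2527. Venous cells had 3307, 432, 1237 and 2777 TPM at 20 somites and 1754, 3300, 2482 and 2652 TPM at 15-18 somites. EC2 cells had 2008, 2040, 4747, 2027 and 1109 TPM at 20 somites and 1308 and 1641 TPM at 15-18 somites.

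EPC had between 1143 and 4007 TPM of egfl7 at 20 somites (median 1689) and between 911 and 4520 TPM at 15-18 somites (median 2465), so that the 4 endothelial populations overlapped throughout. The level was 11.08 in arterial, 10.91 in venous and 10.79 in EC2 cells, against 11.04 in EPC, and the differences from EPC were 0.03, -0.13 and -0.25. With the near-identical arterial cells counted once the arterial difference was 0.13. The mean in EPC was 85.7% of that in arterial cells, which had the highest mean TPM. egfl7 was also the only one of the 7 genes with a low signal in nearly all other cells: 24 of the 26 erythrocytes, epithelial cells and macrophages were above 1 TPM, with a median of 4.75 and a highest value of 16.8 TPM, far under the lowest endothelial value of 432 TPM.

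cdh5, the adherens junction cadherin, was likewise present in every endothelial cell. Arterial cells had 835, 301 and 258 TPM at 20 somites and between 110 and 1395 TPM (median 550) at 15-18 somites. In venous cells the values were 103, 201, 732 and 424 TPM at 20 somites and 711, 914, 838 and 428 TPM at 15-18 somites. In EC2 cells they were 460, 473, 1209, 284 and 312 TPM at 20 somites and 655 and 639 TPM at 15-18 somites.

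EPC ranged more widely in cdh5, between 27.6 and 866 TPM at 20 somites (median 104) and between 89.0 and 1013 TPM at 15-18 somites (median 404). The EPC below 100 TPM, 3 of them at 20 somites and 1 at 15-18 somites, lay under every arterial, venous and EC2 cell, and the other EPC overlapped with them. Outside the endothelial populations and population 3, cdh5 passed 1 TPM in 3 of 26 cells, among them an erythrocyte of 20 somites with 32.5 TPM. The levels were 8.71 in arterial, 8.80 in venous and 9.11 in EC2 cells, against 7.85 in EPC. The differences were 0.86, 0.94 and 1.26, and the arterial one was 0.76 with the near-identical cells counted once. In all 3 cases the difference was larger at 20 somites (1.57, 1.07 and 1.80) than at 15-18 somites (0.14, 0.82 and 0.72).

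esama, an adhesion gene of the immunoglobulin family whose mammalian counterpart lies at endothelial tight junctions, was detected in all 42 endothelial cells but spread over a wide range. Its values were 678, 47.8 and 1317 TPM in arterial cells at 20 somites and 44.2 to 2264 TPM (median 146) at 15-18 somites. Venous cells had 656, 58.3, 292 and 115 TPM at 20 somites and 502, 26.2, 423 and 77.6 TPM at 15-18 somites. EC2 cells had 469, 791, 62.5, 981 and 607 TPM at 20 somites and 371 and 464 TPM at 15-18 somites.

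In EPC, esama ranged between 4.76 and 761 TPM at 20 somites (median 118) and between 57.2 and 435 TPM at 15-18 somites (median 267), inside the spread of the other endothelial cells but for the lowest cell. The levels were 8.01 in arterial, 7.38 in venous and 8.72 in EC2 cells, against 7.12 in EPC, with differences of 0.88, 0.26 and 1.60. Counting the near-identical cells once gave 0.98 for the arterial difference. Outside the endothelial populations esama passed 1 TPM in 17 of the 26 erythrocytes, epithelial cells and macrophages, mostly at low values. An erythrocyte with 147 TPM and a macrophage with 97.4 TPM, both at 15-18 somites, were the exceptions.

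In tie1, the receptor related to Tek, the EPC of the 2 stages differed more than in any other gene of the set, by -2.86. At 20 somites 4 of 6 EPC expressed it, with a median of 75.8 TPM over all 6, a highest value of 302 TPM and 2 cells at 0. At 15-18 somites all 8 EPC did, between 46.4 and 645 TPM (median 190). No arterial, venous or EC2 cell lacked it. Arterial cells had 298, 668 and 31.8 TPM at 20 somites and between 56.0 and 655 TPM (median 357) at 15-18 somites. Venous cells had 69.6, 353, 429 and 282 TPM at 20 somites and 412, 1006, 9.26 and 393 TPM at 15-18 somites. EC2 cells were the most even, with 453, 725, 573, 224 and 470 TPM at 20 somites and 421 and 486 TPM at 15-18 somites.

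The tie1 level was 7.79 in arterial, 7.77 in venous and 8.83 in EC2 cells, against 5.96 in EPC, with differences of 1.83, 1.81 and 2.87 (1.77 for arterial cells with the near-identical pair counted once). These differences were 3.02, 3.35 and 4.31 at 20 somites and 0.64, 0.27 and 1.43 at 15-18 somites, so at the earlier stage only EC2 passed 1. Outside the endothelial populations and population 3, tie1 was at or near 0: 0 of 26 erythrocytes, epithelial cells and macrophages were above 1 TPM. This count allows up to 11.5%, and the highest value among these cells was 0.65 TPM. In population 3, 7 of 28 cells were above 1 TPM, the highest at 762 TPM.

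tek, the angiopoietin receptor, was the only gene of the set with its highest level in venous cells. Venous cells had 62.3, 72.7, 208 and 218 TPM at 20 somites and 75.2, 126, 0 and 228 TPM at 15-18 somites. EC2 cells had 264, 82.9, 7.01, 41.1 and 34.8 TPM at 20 somites and 46.6 and 84.5 TPM at 15-18 somites. In arterial cells tek was at 0.84, 46.6 and 0 TPM at 20 somites, and at 15-18 somites it was between 0 and 251 TPM with a median of 36.0 and 9 of 10 cells above 1 TPM.

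EPC had tek between 0 and 161 TPM at 20 somites (median 2.93, 4 of 6 cells detected) and between 0 and 81.3 TPM at 15-18 somites (median 8.39, 6 of 8 detected). The level was 3.30 in arterial, 6.09 in venous and 5.80 in EC2 cells, against 2.99 in EPC. Venous and EC2 cells were thus higher than EPC by 3.10 and 2.80, at both stages by at least 2.27, whereas the arterial difference of 0.31 (0.23 with the near-identical cells counted once) was made up of -0.84 at 20 somites and 1.46 at 15-18 somites. The difference of arterial minus venous cells in tek was -4.77 at 20 somites and -0.82 at 15-18 somites. The value at 20 somites rests on 3 arterial and 4 venous cells, whose ranges did not overlap.

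cldn5b, a claudin gene used as an arterial marker in zebrafish, was high in arterial and EC2 cells and spread widely in the others. Arterial cells had 1701, 2599 and 466 TPM at 20 somites and between 134 and 4068 TPM (median 1227) at 15-18 somites. EC2 cells had 381, 2053, 1370, 888 and 153 TPM at 20 somites and 1717 and 965 TPM at 15-18 somites, inside the arterial range. Venous cells were split, with 438, 273, 0.57 and 496 TPM at 20 somites and 1.84, 29.3, 327 and 1452 TPM at 15-18 somites.

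In EPC cldn5b reached 759 TPM at 20 somites (median 16.4, 3 of 6 detected) and 1023 TPM at 15-18 somites (median 9.11, 5 of 8 detected). 3 of 14 EPC were inside the arterial range and 11 lay under it. The level was 10.07 in arterial, 6.47 in venous and 9.87 in EC2 cells, against 3.74 in EPC. The differences of 6.33, 2.73 and 6.13 were 6.54, 2.85 and 5.64 at 20 somites and 6.12, 2.62 and 6.63 at 15-18 somites, furthest apart in EC2 cells. Counting the near-identical arterial cells once gave 6.30. Among the 26 erythrocytes, epithelial cells and macrophages a single epithelial cell passed 1 TPM, at 1.71 TPM.

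ecscr, which encodes a transmembrane regulator of endothelial cell migration, was nearly absent from the EPC values. At 20 somites 1 of 6 EPC passed the threshold, at 1.02 TPM, and at 15-18 somites 1 of 8 did, at 406 TPM, while 11 of the 14 were listed at 0. Most arterial, venous and EC2 cells had it, but venous and EC2 cells of 15-18 somites mostly at low values. Arterial cells had 64.3, 408 and 360 TPM at 20 somites and between 0 and 543 TPM (median 108, 9 of 10 detected) at 15-18 somites. Venous cells had 304, 656, 195 and 0 TPM at 20 somites and 223, 0, 2.94 and 3.60 TPM at 15-18 somites. EC2 cells had 390, 783, 24.2, 260 and 0.77 TPM at 20 somites and 9.11 and 15.1 TPM at 15-18 somites.

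The ecscr level was 7.04 in arterial, 4.65 in venous and 5.01 in EC2 cells, against 0.69 in EPC, with differences of 6.35, 3.96 and 4.32 (6.24 for arterial cells with the near-identical pair counted once). All 3 were larger at 20 somites (7.56, 6.14 and 6.18) than at 15-18 somites (5.13, 1.79 and 2.47). Arterial cells were higher than venous cells by 1.43 at 20 somites and by 3.34 at 15-18 somites. 0 of 26 erythrocytes, epithelial cells and macrophages were above 1 TPM (a share of up to 11.5%), and all but 1 of them were listed at 0.

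**Figure D2:**
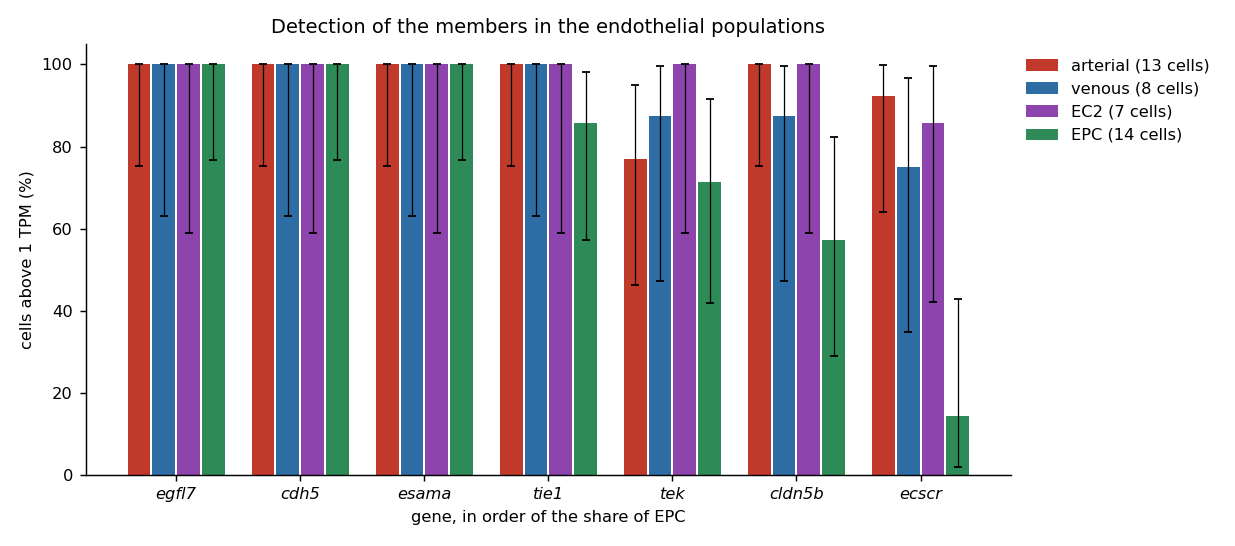
Share of cells above 1 TPM for each gene (vertical axis, percent) in arterial, venous, EC2 and EPC cells, with exact 95% binomial (Clopper-Pearson) intervals as error bars, which cover the counting of cells only. The EPC bars step down along the genes, with 85.7% for tie1, 71.4% for tek, 57.1% for cldn5b and 14.3% for ecscr, while the other populations stay at 75% or above. For tek the arterial share (76.9%) is close to that of EPC.

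In the order by detection in EPC, egfl7, cdh5 and esama tied at 14 of 14 cells (exact 95% interval 76.8% to 100%), followed by tie1 (57.2% to 98.2%), tek (41.9% to 91.6%), cldn5b (28.9% to 82.3%) and ecscr (1.78% to 42.8%). The intervals of neighbouring genes overlapped. All genes were counted in the same 14 cells, so the intervals do not measure differences between genes. tie1 was detected without ecscr in 11 EPC, and ecscr without tie1 in 1. Measured by mean TPM in EPC as a percentage of the highest population mean, the order was egfl7 (85.7%), cdh5 (66.2%), esama (43.0%), tie1 (35.9%), tek (25.1%), ecscr (13.8%) and cldn5b (10.8%), with the last places exchanged. The 13.8% of ecscr comes almost wholly from the EPC with 406 TPM.

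Stage by stage, the EPC of 20 somites had egfl7, cdh5 and esama in 6 of 6 cells, tie1 and tek in 4, cldn5b in 3 and ecscr in 1, and the EPC of 15-18 somites had egfl7, cdh5, esama and tie1 in 8 of 8, tek in 6, cldn5b in 5 and ecscr in 1. No pair of genes changed places between the stages, but tie1 was tied with tek at 20 somites and with egfl7, cdh5 and esama at 15-18 somites. A threshold of 10 TPM was chosen for the order after the data had been seen. EPC counts were 14 for egfl7 and cdh5, 13 for esama, 12 for tie1, 6 each for tek and cldn5b and 1 for ecscr. At 5 TPM, tek was detected in 7 EPC and cldn5b in 8, so tek and cldn5b exchanged places. The distance of EPC to the other endothelial populations also depended on the threshold. At 5 TPM, tek was detected in 7 of 13 arterial and 7 of 8 venous cells, against 7 of 14 EPC. ecscr was detected in 12 of 13 arterial and 4 of 8 venous cells, against 1 of 14 EPC.

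Within single EPC the order did not form a strict ladder. 5 of 14 EPC had egfl7, cdh5, esama, tie1 and tek, 3 had cldn5b in place of tek, and 3 had all 6 genes other than ecscr. tek and cldn5b were detected together in 4 EPC, tek alone in 6 and cldn5b alone in 4, and no EPC lacked both. tie1 without tek was seen in 3 EPC and tek without tie1 in 1. Both EPC with ecscr broke the order: the one with 406 TPM had tie1 and tek but no cldn5b, and the one at 1.02 TPM had cldn5b but neither receptor.

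Each EPC had 5 or 6 of the 7 genes detected, and none had all of them. At 20 somites 6 of 6 EPC had exactly 5, and at 15-18 somites the mean was 5.5. In arterial cells the mean was 6.69 ± 0.48, in venous cells 6.50 ± 0.53 and in EC2 cells 6.86 ± 0.38, against 5.29 ± 0.47 in EPC (SD over cells). All 7 genes were detected in 9 of 13 arterial, 4 of 8 venous and 6 of 7 EC2 cells, and in 8 of 12 arterial cells with the near-identical pair counted once. The 9 arterial, venous and EC2 cells that missed a gene each missed exactly 1: ecscr in 4 of them, tek in 4 and cldn5b in 1. Between members and genes detected per cell, Pearson's r was 0.45 over the 14 EPC and 0.26 over the 28 arterial, venous and EC2 cells, which share the 2 chips; its part in the result was not tested.

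**Figure D3:**
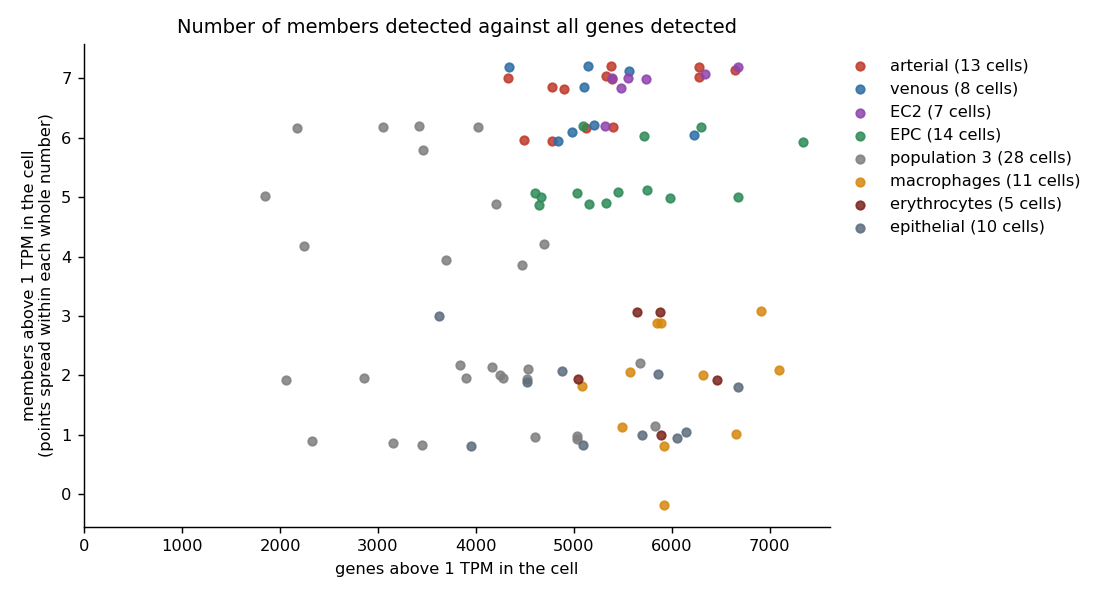
Number of the 7 genes above 1 TPM in each cell (vertical axis, points spread within each whole number) against the number of all genes above 1 TPM in that cell (horizontal axis), coloured by population. Endothelial cells hold 5 to 7 of the genes, erythrocytes, epithelial cells and macrophages at most 3, and population 3 spans 1 to 6.

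Counted against EPC, 3 of the 7 genes were higher by at least 1 in arterial cells (tie1, cldn5b and ecscr), where 15.8% of all 9581 genes tested were, and 0 were lower, where 20.3% of all genes were. In venous cells 4 were higher (tie1, tek, cldn5b and ecscr), against 15.8% of 8682 genes, and 0 lower, against 20.5%. In EC2 cells 6 were higher, all but egfl7, against 24.9% of 8759 genes, and 0 lower, against 17.1%. All 7 members passed the filter on low values, above 1 TPM in at least 5 of the cells compared. ecscr, detected in 2 of 14 EPC, passed only through the arterial (12 of 13), venous (6 of 8) or EC2 cells (6 of 7). cldn5b and ecscr are also arterial markers that the authors derived from these clusters, so their counts describe the clusters. The median difference over the 7 genes was 0.88 in arterial, 1.81 in venous and 2.80 in EC2 cells, where the medians over all genes tested were -0.13, -0.11 and 0.13. These 3 comparisons share the same EPC.

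Holding at both stages, 2 of 7 genes passed in arterial cells (cldn5b and ecscr, with 6.55% of all genes), 3 in venous cells (tek, cldn5b and ecscr, with 6.52%) and 4 in EC2 cells (tie1, tek, cldn5b and ecscr, with 11.5%). cldn5b and ecscr were therefore the genes past 1 against EPC in every population at each stage. In arterial cells 5 of 7 genes passed at 20 somites alone, with 24.2% of all genes, and 3 at 15-18 somites alone, with 17.5%. In venous cells these counts were 6 (22.7% of all genes) and 3 (21.8%), and in EC2 cells 6 (25.3%) and 4 (33.8%).

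**Figure D4:**
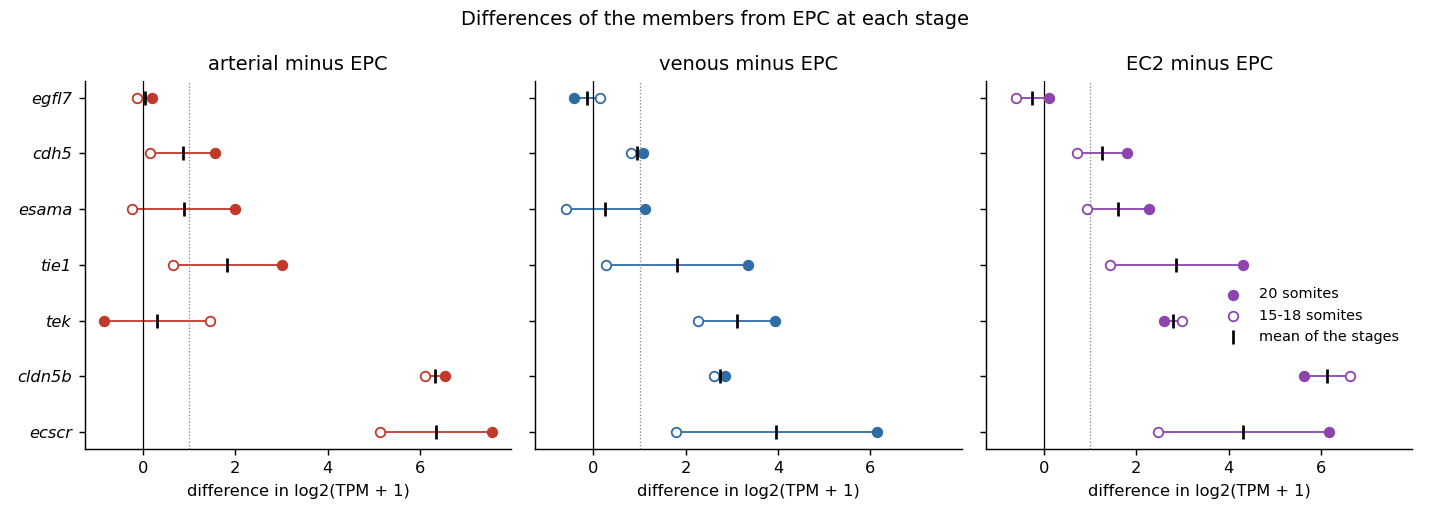
Difference from EPC in log2(TPM + 1) for each gene (horizontal axis) in arterial, venous and EC2 cells, at 20 somites (filled), at 15-18 somites (open) and as the mean of both stages (black mark), with the dotted line at 1. cldn5b lies at or past 2.62 in all 3 panels, egfl7 lies between -0.61 and 0.19, and the arterial difference of tek changes sign between the stages.

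Between stages the 7 genes showed no common shift. Averaged over the 4 endothelial populations, the difference of 20 somites minus 15-18 somites had a median of -0.06 over the members and -0.08 over 11521 genes tested, with 2 members positive and 5 negative. It was 1.58 for ecscr, above the 95th percentile of all genes tested (1.24), and between -0.85 (cdh5) and 0.00 (esama) for the others. In ecscr the later level was higher in venous cells (by 3.31), in EC2 cells (6.35 at 20 somites, against 3.67 at 15-18 somites) and in arterial cells (7.73 against 6.34), and lower in EPC (0.17 against 1.21, where the cell with 406 TPM set the level at 15-18 somites).

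In EPC the median stage difference over the members was -1.04, where that over all genes was -0.03. This median is the value of ecscr, whose level at 15-18 somites came mainly from the EPC with 406 TPM. The drops of tie1, cdh5 and esama were larger than this median. egfl7, cldn5b and tek showed no drop of that size, so it was not shared by the whole set. tie1 was at 4.53 in EPC of 20 somites, against 7.39 in EPC of 15-18 somites, cdh5 at 7.08 against 8.62, and esama at 6.47 against 7.78, whereas egfl7, at 10.95 against 11.13, cldn5b and tek differed by less than 0.2. The median numbers of genes detected in those EPC were 5600.5 at 20 somites and 5242 at 15-18 somites. In arterial, venous and EC2 cells the medians over the members were 0.14, 0.30 and 0.01. With 6 and 8 EPC from 1 sample each, these values have no replicate check.

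Set against the non-endothelial populations, all 7 genes were higher in endothelial cells by at least 1 (13.8% of 15147 genes tested were), and all 7 at both stages (8.56%). The differences were 8.03 for egfl7, 7.43 for cdh5, 7.09 for tie1, 6.85 for cldn5b, 5.38 for esama, 4.04 for tek and 4.03 for ecscr. In the order of the 8 populations by level, 4 of 49 neighbouring pairs differed by more than the larger of their SDs over cells. These were the steps below the endothelial populations in egfl7 (6.16), cdh5 (5.15), tie1 (4.67) and esama (4.02). Within the endothelial populations no neighbours differed by more than that SD, for any of the genes, and for cldn5b, tek and ecscr neither did EPC and population 3. In ecscr, population 3 stood above EPC (1.22 against 0.69).

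Population 3 was the population in which other cells carried these genes. 11 of its 28 cells had at least 4 of the 7 detected (39.3%, exact 95% interval 21.5% to 59.4%). Of 26 erythrocytes, epithelial cells and macrophages, 0 did. That count allows a share of up to 11.5% by the limit of 3 cells and up to 13.2% by the exact interval. Of the 11, 3 of 14 cells were at 20 somites and 8 of 14 at 15-18 somites. 5 cells of population 3 were above the lowest endothelial value of egfl7, 8 above that of cdh5 and 8 above that of esama. 5 cells had 6 of the genes. In 2 of these, 1 at 20 somites and 1 at 15-18 somites, cdh5 was at 1034 and 366 TPM, cldn5b at 1942 and 992 TPM, egfl7 at 2490 and 3580 TPM and ecscr at 568 and 176 TPM, inside the arterial range but for the ecscr value of 568 TPM. In the same cells tie1 was at 504 and 10.1 TPM and esama at 1.15 and 6.91 TPM, where the lowest arterial values were 31.8 TPM of tie1 and 44.2 TPM of esama, and tek was listed at 0 in both.

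The 11 cells with at least 4 of the genes had a median of 3461 genes detected, against 4245 in the other 17 cells of population 3. Pearson's r between members and genes detected was -0.36 over the 28 cells. Of the endothelial markers outside the set, kdrl was above 100 TPM in 4 of the 11 cells and 0 of the other 17, sox7 in 7 of 11 and 1 of 17, and etv2 in 8 of 11 and 7 of 17. erg was above 100 TPM in 1 of 11 and 1 of 17, with its highest value, 851 TPM, in a cell with fewer than 4 of the genes, and tal1 in 3 of 11 and 4 of 17. A threshold of 5 TPM for the members left 7 of 28 cells. The cells were counted and not reassigned, and the part of complexity in these counts was not tested.

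Across the 42 endothelial cells most pairs of members followed each other weakly. The highest Pearson's r of log2(TPM + 1) between 2 of them was 0.46 for cdh5 with tie1, followed by 0.37 for cldn5b with ecscr and 0.34 for cdh5 with tek. cdh5 with tie1 lay above the 99th percentile of r over all genes compared, which was 0.42 for cdh5 and 0.39 for tie1. The pairs cldn5b with ecscr (percentiles 0.41 and 0.44) and cdh5 with tek (0.42 and 0.37) lay under theirs. After the means of each population and stage were subtracted, cdh5 with tek stood at 0.33, cdh5 with tie1 at 0.28 and cldn5b with ecscr at -0.18. With the near-identical cells counted once the first 3 values were 0.45, 0.36 and 0.33. The cells share 2 chips, their populations and TPM totals, and no p is given.

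Among 8233 genes above 1 TPM in at least 10 endothelial cells, the genes most like cdh5 were ramp2 (r = 0.61), a calcitonin receptor accessory protein of vascular cells, tspan14 (0.60), a tetraspanin, and ASAP1 (0.59). ramp2 (0.57) was also among those most like tie1, after arap3 (0.65) and gabrd (0.62). The genes most like cldn5b were tmsb4x (0.70), which encodes an actin-binding thymosin, efnb2a (0.63), an arterial ephrin, and spock3 (0.62), and spock3 (0.65) also led for ecscr, before atp6ap1a (0.63) and CAVIN2 (0.62).

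For efnb2a and spock3 the likeness lay between populations: it was 0.25 and 0.17 with cldn5b, and 0.29 for spock3 with ecscr, after the means of population and stage were subtracted. spock3 had a level of 7.69 in arterial, 2.90 in venous and 7.84 in EC2 cells, against 0.42 in EPC. Most like egfl7 were luc7l (0.56), the gene with the identifier ENSDARG00000051887 (0.51) and MAPK14 (0.50). esama was followed by actr3, sf3a1 and si:dkey-89b17.4 (0.53, 0.53 and 0.52), and tek by psmd13 (0.63), arpc2 (0.56) and the gene ENSDARG00000053020 (0.52). The 99th percentile of r over all genes was 0.34 to 0.44 for the 7 members. The named genes were picked as the 3 of highest r, so they lie above it by that choice. Counted once, the near-identical cells moved these values of r by at most 0.03.

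Other junction genes lay on both sides of EPC. Of 28 junction genes listed, 19 were matched. Of those tested, 5 of 15 were higher by at least 1 and 5 lower in arterial cells than in EPC, 2 of 14 were higher and 4 lower in venous cells, and 7 of 15 were higher and 4 lower in EC2 cells. Of all genes tested, 15.8% were higher and 20.3% lower in arterial, 15.8% and 20.5% in venous and 24.9% and 17.1% in EC2 cells. The list's medians were -0.54, 0.05 and 0.09, where those of all genes were -0.13, -0.11 and 0.13. Between endothelial and other cells 7 of 18 were higher and 3 lower (median 0.72), where 13.8% and 9.74% of all genes were (median 0.07). Of the catenins, ctnnb1 was at 8.08 in arterial, 8.57 in venous, 6.20 in EC2 and 7.89 in EPC, and was detected in 52 of 54 other cells. ctnnd1 was at 7.58, 6.68, 7.45 and 6.32 in the same populations, and was detected in 41 of 54 other cells.

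amotl2a, whose product couples VE-cadherin to actin, was the junction gene of highest endothelial level, at 8.61 in arterial, 7.10 in venous and 9.35 in EC2 cells, against 7.31 in EPC. mcamb, an adhesion gene of the immunoglobulin family, was at 8.44 in arterial, 7.11 in venous and 7.92 in EC2 cells, against 3.86 in EPC, where 7 of 14 cells had it. Of the nearest relatives of the members, cldn5a was detected in 2 of 13 arterial, 0 of 8 venous, 1 of 7 EC2 and 4 of 14 EPC cells, and esamb differed from EPC by -1.29 in arterial, -0.74 in venous and -1.70 in EC2 cells.

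3 further junction genes were chosen after their values had been seen. jam2a, a junctional adhesion molecule gene, was at 7.14 in arterial, 1.96 in venous and 8.61 in EC2 cells, against 3.45 in EPC. Its relative jam2b was detected in 7 of 14 EPC and in 1 of 13 arterial, 0 of 8 venous and 0 of 7 EC2 cells. rasip1, which encodes a regulator of endothelial adhesion and lumen formation, was at 7.27 in arterial, 8.02 in venous and 7.44 in EC2 cells, against 3.69 in EPC. jam2a, like cldn5b, was thus high in arterial and EC2 cells, and rasip1 in all 3 populations.

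Of 7 listed ligands and regulators of the Tie receptors, 3 were matched and 4 were not analysed here, angpt2a and angpt2b among them. angpt1, the main activating ligand of Tek in mammals, was above 1 TPM in 1 of 14 EPC, in none of the 28 arterial, venous and EC2 cells and in 2 of 54 other cells. angpt4 was above 1 TPM in 8 of 13 arterial, 5 of 8 venous and 6 of 7 EC2 cells, in 12 of 14 EPC and in 31 of 54 other cells, with a level of 2.78 in arterial and 1.69 in venous cells, against 2.63 in EPC. svep1, encoding a matrix protein, was detected in none of the 42 endothelial cells.

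Other endothelial surface genes were mostly higher in arterial, venous and EC2 cells than in EPC. Of 17 tested out of 26 listed, 13 were higher by at least 1 and 2 lower in arterial cells, 11 higher and 1 lower in venous cells, and 11 higher and 2 lower in EC2 cells, with medians of 2.23, 1.90 and 2.19. The shares of all genes were 15.8% higher and 20.3% lower in arterial, 15.8% and 20.5% in venous and 24.9% and 17.1% in EC2 cells, with medians of -0.13, -0.11 and 0.13. flt4 and stab1l, both in this list, are genes by which the paper describes its venous cluster. s1pr1, detected in 3 of 14 EPC, passed the filter only through the arterial (10 of 13), venous (6 of 8) or EC2 cells (7 of 7). The counts of this list therefore describe the clusters. Between endothelial and other cells 16 of 17 were higher (median 4.91), where 13.8% of all genes were (median 0.07). The 4 with the highest endothelial level were ramp2, kdrl, aplnra and nrp1b. kdrl, a receptor of vascular endothelial growth factor, differed from EPC by 2.23 in arterial, 0.29 in venous and 1.82 in EC2 cells, and was detected in all 14 EPC, as were egfl7, cdh5 and esama. ramp2 was at 8.89, 8.97 and 8.55, against 6.36 in EPC, the apelin receptor gene aplnra at 7.76, 9.54 and 6.88, against 6.42, and nrp1b, a neuropilin, at 7.78, 6.57 and 6.75, against 6.38.

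Transcription factor genes of the endothelial program lay on both sides of EPC. All 7 matched regulators of 10 listed were higher in endothelial than in other cells (median 6.19), where 13.8% of all genes were. Against EPC 2 were higher and 2 lower in arterial cells, 2 and 2 in venous cells and 3 and 3 in EC2 cells, counts of a list of 7 that stand beside 15.8% higher and 20.3% lower, 15.8% and 20.5%, and 24.9% and 17.1% of all genes. etv2, whose upstream sequence drives the reporter, was at 12.35 in arterial, 12.56 in venous and 11.77 in EC2 cells, against 12.98 in EPC, and lmo2, a factor of endothelial and blood progenitors, at 9.75, 9.34 and 8.69, against 12.04 in EPC. sox7 (11.12, 10.69 and 10.37, against 10.44 in EPC) stayed within 0.68 of its EPC level, and sox18 was at 8.80, 7.86 and 9.33, against 7.80 in EPC.

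Markers of macrophages, erythrocytes and epidermis were lower in the median endothelial cell than in the cells they mark. The summed macrophage markers had a median of 0.95 TPM in arterial, 13.6 in venous, 3.37 in EC2 and 3.70 in EPC cells, against 5334 TPM in macrophages, and the summed erythrocyte markers a median of 24.2, 8.55, 29.9 and 18.6 TPM, against 55344 TPM in erythrocytes. The highest summed epidermal value in any endothelial cell was 376 TPM, against a lowest value of 16335 TPM in epithelial cells. A single arterial cell reached 1575 TPM of summed macrophage markers. The 5 matched tailbud markers, summed, had a median of 4.82 TPM in arterial, 183 in venous, 65.7 in EC2 and 76.6 in EPC cells (highest 6743 in an EPC), against 77.5 TPM in population 3. apoeb, which is in that list, was above 1 TPM in 39 of 42 endothelial cells. The part of these markers in the differences between populations was not tested.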

How the data were processed

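Single GFP-positive cells were captured on the Fluidigm C1 system, which isolates each cell in its own chamber, and polyadenylated RNA was sequenced. The authors quantified paired-end reads with Kallisto within AltAnalyze against Ensembl release 72 of the Zv9 assembly and deposited TPM per gene and cell. Kallisto's version and read filters are not given in the sources used here. They clustered the cells iteratively by cosine similarity with a filter against cell cycle effects, and population numbers were taken from their deposited grouping. A doublet caller was not run, and no per-sample column was left unused. Symbols were matched for 20017 of 27931 identifiers, with esama matched through a RefSeq synonym of assembly GRCz12tu, from which no coordinates were taken. No sequences or positions are given.

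The genes, the lists compared with them and the tests were chosen with earlier results of these data known. The text names the members, the 3 genes most like each, the 4 genes of each list with the highest endothelial level, cldn5a, esamb and the angiopoietins; others are marked where named. Genes above 1 TPM in at least 5 of the cells compared were tested against the difference of 1, which is 2-fold. Levels use a pseudocount of 1 TPM, so differences on the log2(TPM + 1) scale understate those of low genes. Exact 95% intervals and the limit of 3 cells for a count of 0 cover the counting of cells only. Calculations used Python 3.11.15, numpy 2.4.6, pandas 2.3.3, scipy 1.17.1 and matplotlib 3.10.9, and were tested on simulated data. The alternatives were another pseudocount, summary, weighting, stage, scaling and detection threshold, and leaving out each cell.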

Additional observations from a re-analysis of the deposited data

Results flagged for a closer look

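Of 49 differences, between endothelial populations or between endothelial and other populations, 13 had opposite signs at the stages. All 13 were between endothelial populations. Each stage is 1 sample, so the change of sign was not tested. Against EPC, tek in arterial cells was at -0.84 at 20 somites and 1.46 at 15-18 somites. esama was at 1.99 and -0.23 in arterial cells and at 1.11 and -0.59 in venous cells, in the same order of stages. egfl7 was at 0.19 and -0.13 in arterial, -0.41 and 0.15 in venous and 0.10 and -0.61 in EC2 cells.

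Among arterial, venous and EC2 cells, tek in EC2 minus venous cells was at -1.32 at 20 somites and 0.73 at 15-18 somites, and cldn5b in EC2 minus arterial cells at -0.90 and 0.51. cdh5 was at 0.50 and -0.68 in arterial minus venous cells and at 0.73 and -0.10 in EC2 minus venous cells. egfl7 was at 0.61 and -0.27 in arterial minus venous cells and at 0.52 and -0.76 in EC2 minus venous cells, and tie1 in arterial minus venous cells at -0.33 and 0.37.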

How the results depend on the processing

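Of 217 alternative values for the 20 differences of at least 1, none changed sign and 5 were under 1. Against EPC, these were tie1 in arterial (0.64) and venous cells (0.27), cdh5 in EC2 cells (0.72) and esama in EC2 cells (0.92) at 15-18 somites alone, and cdh5 in EC2 cells (0.76) with log2 of the mean TPM. The alternatives include leaving out cells with fewer than 3000 genes detected. That setting could not change a difference from EPC, because every endothelial cell had at least 4329. The size of the largest differences depended on the measure. For cldn5b, arterial minus EPC (6.33) became 4.76 with a pseudocount of 10 TPM, 3.22 with log2 of the mean TPM and 7.56 with the median over cells. The same settings gave 4.57, 2.82 and 7.13 for cldn5b in EC2 cells (6.13). For ecscr in arterial cells (6.35) they gave 3.63, 4.86 and 7.63. The count of genes higher in arterial cells than in EPC was 5 at 20 somites alone and 3 to 4 with each cell left out in turn; in venous cells it was 4 to 5, in EC2 cells 6 and between endothelial and other cells 7 with each cell left out. The detection threshold moved the mean number of members, to 6.46 at 5 TPM and 6.36 at 10 TPM per arterial, venous or EC2 cell, against 4.93 and 4.71 per EPC. The share of population 3 cells with at least 4 members was 67.9% above 0 TPM and 21.4% at 20 somites alone. Counting the near-identical arterial cells once, and leaving population 3 out of the other cells, were chosen after the data had been seen and changed no count. With no filter on low values the shares of all genes higher by at least 1 were 6.76% in arterial, 6.78% in venous and 11.1% in EC2 cells against EPC and 7.49% for endothelial against other cells, in place of 15.8%, 15.8%, 24.9% and 13.8%. No paired analysis was possible because the 2 stages hold 1 sample each and share no numbered replicates. The number of reads per cell, which TPM does not keep, limits what a value of 0 can show.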
